A study of Mus musculus with 12 samples.

Results

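The genes that make, clear, carry and answer to retinoic acid were followed in the fetal testis of 2 mouse strains at 3 embryonic stages. The set has 9 genes, chosen by name: the synthesizing enzymes Aldh1a1, Aldh1a2 and Aldh1a3 with their paralog Aldh1a7, the clearing enzymes Cyp26a1, Cyp26b1 and Cyp26c1, the carrier Crabp1 and the receptor Rarb. Of these 9 genes, 8 were measured by 10 probe sets, out of 18032 genes and 45037 probe sets in all, and Cyp26c1 was not analysed here. The embryos were M19 (129.MOLF-Chr 19), which carry chromosome 19 of the MOLF strain on the 129/Sv background, and 129/Sv (129). Male genital ridges were taken from both strains at E13.5, E15.5 and E17.5, with no other treatment or allele given in the labels. Each of the 6 groups has 2 Affymetrix mouse arrays. The labels give a pool of 40 testis pairs behind 2 arrays, so both arrays of a group may share a pool and the p-values may measure technical spread alone. Values are log2 signal. A strain difference is M19 minus 129 and a stage difference is the later stage minus the earlier one, each with the standard error (SE) of a limma fit to all 12 arrays. Differences with a p under 0.05 after Benjamini-Hochberg adjustment over all probe sets are named as called.

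Retinoic acid is made from vitamin A when retinol is oxidized to retinal and the ALDH1A enzymes oxidize retinal further. Enzymes of the CYP26 family hydroxylate retinoic acid and so clear it, CRABP proteins bind it in the cytosol, and RAR receptors paired with RXR switch genes at DNA elements built of spaced repeats. In the mouse fetal testis CYP26B1 of Sertoli cells is known to degrade retinoic acid made in and near the gonad, which keeps germ cells from entering meiosis as they do in the ovary. Cyp26a1 and Rarb are themselves known as genes that retinoic acid induces, and are often read as its reporters.

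The promoters of Rarb and Cyp26a1 are shown because they hold such a repeat, and because the genes changed at different stages. RefSeq promoters of 300 bases were found for 8 of the 9 genes (9 promoters, GRCm38.p6). They were searched on both strands for a pair of half-sites, each either AGGTCA or its variants AGTTCA and GGGTCA or lastly GGTTCA, in the same direction and 5 bases apart. Of all 32851 promoters 32 held the pair, or 0.0974%, and of the 8 genes Cyp26a1 and Rarb did. None of the 38 further retinoid genes with a promoter held it. With 2 bases between the half-sites 0.268% of promoters matched, and with 1 base 0.222%. No member matched either form. The promoters are printed 5′ to 3′ in the direction of the gene, with the repeat in capitals.
Rarb, chr14:16575427-16575726, minus strand: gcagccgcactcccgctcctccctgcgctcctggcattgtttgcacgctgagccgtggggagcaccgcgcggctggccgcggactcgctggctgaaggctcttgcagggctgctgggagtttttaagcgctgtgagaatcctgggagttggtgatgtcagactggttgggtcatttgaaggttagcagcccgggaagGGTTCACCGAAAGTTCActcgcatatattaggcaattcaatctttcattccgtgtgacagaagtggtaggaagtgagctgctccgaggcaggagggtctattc
Cyp26a1, chr19:37697558-37697857, plus strand: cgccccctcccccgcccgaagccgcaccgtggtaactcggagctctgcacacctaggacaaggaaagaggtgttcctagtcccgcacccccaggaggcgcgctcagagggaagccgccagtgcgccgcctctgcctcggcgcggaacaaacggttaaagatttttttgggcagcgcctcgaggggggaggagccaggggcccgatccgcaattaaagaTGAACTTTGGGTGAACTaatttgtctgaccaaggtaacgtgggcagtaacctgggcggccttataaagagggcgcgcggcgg
In Rarb the repeat lies 53 to 37 bases before the transcript start on which RefSeq's window is placed, and reads in the printed direction. In Cyp26a1 it lies 32 to 16 bases before the start so placed, and reads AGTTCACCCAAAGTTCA on the other strand. These letters are of the C57BL/6J reference genome. Both of these starts lie inside the full interval of the gene, which also holds transcripts that begin further out. The 129 and MOLF sequences were not used here, and a match does not show that a receptor binds.

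The arrays carried the Sertoli cell markers of a fetal testis. The list of 8 markers had a mean log2 signal of 11.39 to 11.94 on M19 arrays and of 11.41 to 11.91 on 129 arrays. As a scale for dim signals, 44 olfactory receptor probe sets had a median of 7.25 and a 95th percentile of 8.33 over their means. Where an array of a member lies under 8.33, the size of a difference rests on signal in that range, and no fold is given. Replicates correlated at 0.979 to 0.996 across probe sets, and the SD of their difference was 0.161 to 0.38, widest in 129 at E13.5. Both 129 arrays at E15.5 stood apart by markers of skin, skeletal muscle and cartilage. Strain differences at E15.5 and 129 steps to or from E15.5 use these arrays. The part of the other tissues in them was not tested. Fewer cells of a type and less RNA per cell cannot be told apart in these pooled tissues.

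The strain comparison asks which genes differ when chromosome 19 comes from MOLF. Among the measured members, Aldh1a7, Crabp1 and Cyp26a1 differed between the strains at 1 stage or more, and the other 5 were called at none. At E13.5, 0 of 8 members were called, where 0.0333% of all genes were, and 1 had an unadjusted p under 0.05 in the same limma fit, where 2.55% of all genes did. At E15.5, 2 of 8 were called, both lower in M19, where 0.688% of all genes were called, 0.15% higher and 0.538% lower. At E17.5, 2 of 8 were called, 1 higher and 1 lower, where 0.0943% were called, 0.0555% higher and 0.0388% lower. Over the 3 stages only Aldh1a7, a gene of chromosome 19, was called, where 0.466% of all genes were. Of the 609 genes measured on chromosome 19, 6.24% were called over the stages. The median difference of the 8 members was -0.04, -0.16 and 0.00 at E13.5, E15.5 and E17.5, against -0.06, 0.01 and 0.01 for all genes. Without both 129 E15.5 arrays, an alternative added once the data had been seen, the counts at E13.5 and E17.5 were again 0 and 2.

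**Figure D1:**
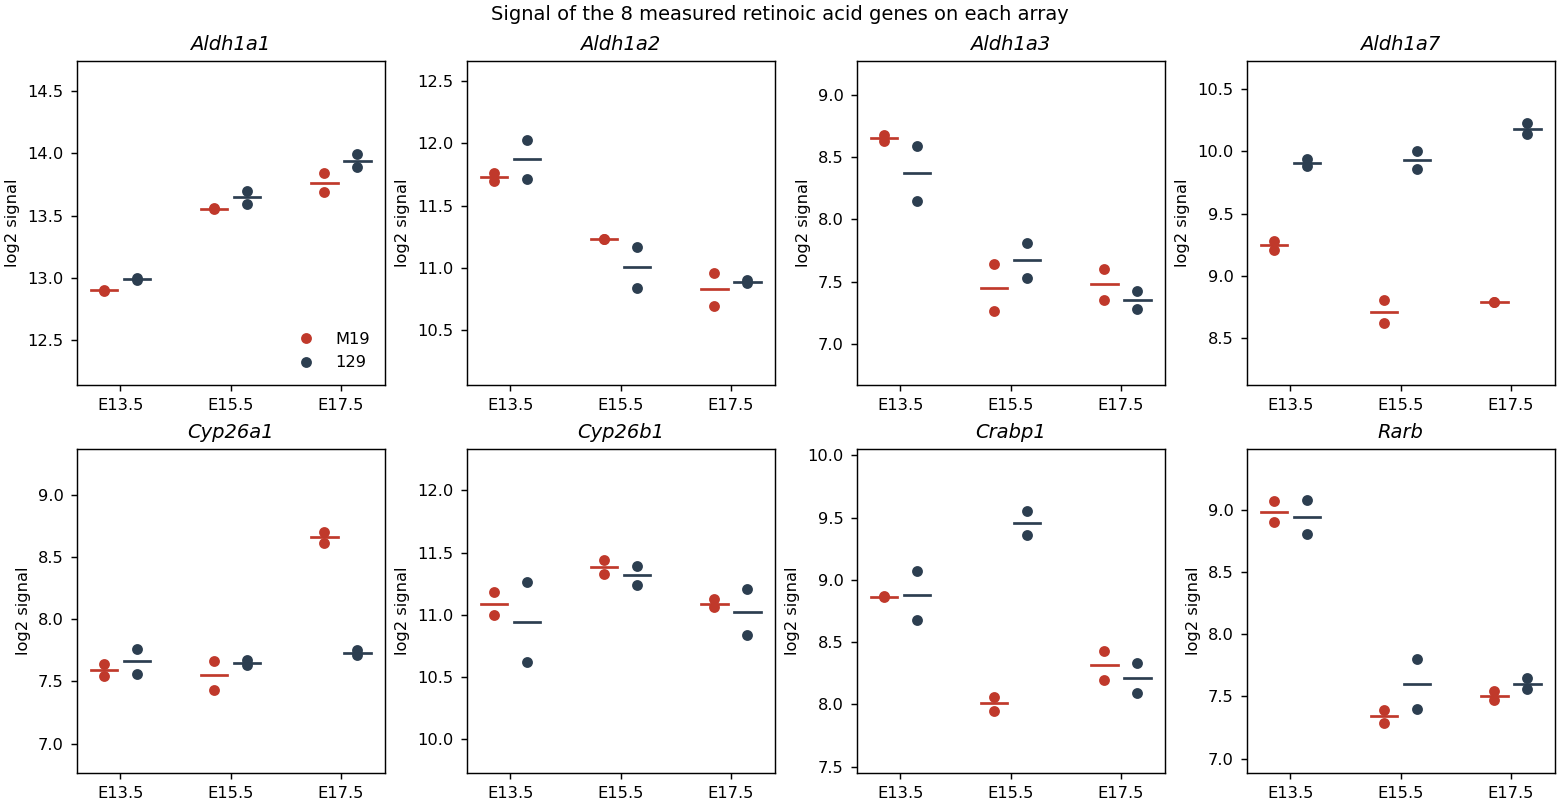
Log2 signal (vertical axis, each panel spanning the same range) of the 8 measured genes by stage, with M19 in red and 129 in dark blue. Each point is 1 array and each bar the mean of 2 arrays. Cyp26a1 is high on the 2 M19 arrays at E17.5 alone, at 8.61 and 8.70, and Crabp1 is highest on the 2 arrays of 129 at E15.5, at 9.55 and 9.36.

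Cyp26a1, the retinoic acid hydroxylase at 37697738 to 37701536 on chromosome 19, was high in M19 at E17.5 alone. Its log2 signal in M19 was 7.64 and 7.54 at E13.5, 7.43 and 7.66 at E15.5, and 8.61 and 8.70 at E17.5. In 129 it was 7.76 and 7.56 at E13.5, 7.67 and 7.63 at E15.5, and 7.75 and 7.71 at E17.5. The M19 arrays at E17.5 lay above all others, which spanned 7.43 to 7.76. At E17.5 the strain difference was 0.93 ± 0.12 (SE, n = 2 arrays per strain, limma adjusted p = 0.018). It was -0.07 ± 0.12 at E13.5 and -0.10 ± 0.12 at E15.5, with adjusted p of 1 and 0.95. Within M19 the gene rose by 1.11 ± 0.12 from E15.5 to E17.5 (adjusted p = 0.0013), and the same step in 129 was 0.08 ± 0.12 (adjusted p = 0.86). The interaction of strain with stage had an adjusted p of 0.074 and was not called. It was called under quantile normalization (0.033) and in the fit with the probe sets of each gene averaged (0.018). Cyp26a1 has 1 probe set, so averaging left its own values unchanged and altered only the fit around it.

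The E17.5 difference of Cyp26a1 had an adjusted p between 0.011 and 0.26 when each of the 12 arrays was omitted in turn, with differences of 0.89 to 0.97. It missed the threshold in 6 of these 12 fits, those without replicate 1 or 2 of M19 at E13.5, of 129 at E17.5 or of M19 at E17.5, and on the 4 compared arrays alone (adjusted p = 0.064). The step in M19 was called in all 12. The signal of Cyp26a1 is dim: the 2 M19 arrays at E17.5 lay above the olfactory 95th percentile of 8.33 and the other 10 arrays below it. Other values moved at the same stage. The mesonephros and duct list (7 of 9 genes measured) had a mean signal of 8.11 to 8.13 in M19 and 7.78 to 7.79 in 129. Of the 7 genes 1 was called, Cdh1, higher by 1.47 ± 0.21. The adrenal and chromaffin list (5 of 6 measured) was at 9.17 to 9.21 in M19 and 8.86 to 8.88 in 129. In it Cyp11b1 was called, higher by 0.87 ± 0.13. The part of these lists in the Cyp26a1 result was not tested.

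Aldh1a7, an aldehyde dehydrogenase close in sequence to Aldh1a1, was lower in M19 at E15.5 and E17.5. The M19 arrays read 9.28 and 9.21 at E13.5, 8.81 and 8.62 at E15.5, and 8.79 on both arrays at E17.5. The 129 arrays read 9.88 and 9.94 at E13.5, 9.86 and 10.00 at E15.5, and 10.23 and 10.14 at E17.5. No M19 array reached the lowest 129 array. The difference was -0.67 ± 0.11 at E13.5 (adjusted p = 0.14), -1.22 ± 0.11 at E15.5 (adjusted p = 0.00045) and -1.39 ± 0.11 at E17.5 (adjusted p = 6e-04). Averaged over the stages it was -1.09 ± 0.07, or 2.13-fold lower in M19 (adjusted p = 2.1e-05). The E15.5 difference is against the 129 arrays that carry markers of other tissues, whose part in it was not tested. Within M19 Aldh1a7 fell by 0.53 on the log2 scale from E13.5 to E15.5 (SE 0.11, adjusted p = 0.02), and in 129 the same step was 0.02 ± 0.11. Without an M19 array of either stage the adjusted p of the M19 step reached 0.2. The interaction was not called (adjusted p = 0.45), so a change of the strain difference with stage was not shown.

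Aldh1a1, the neighbour of Aldh1a7 at a gap of 49.5 kb, showed no called strain difference. Aldh1a1 lies at 20492583 to 20643463 on chromosome 19 and Aldh1a7 at 20692953 to 20727556. The Aldh1a1 difference was -0.09 ± 0.11, -0.09 ± 0.11 and -0.18 ± 0.11 by stage, with 95% intervals of -0.34 to 0.15, -0.33 to 0.15 and -0.42 to 0.06. Among the nearest measured genes on the same side as Aldh1a1, Anxa1 differed by -0.19 ± 0.13 at E13.5, by -1.94 ± 0.13 at E15.5 (adjusted p = 4.5e-05) and by -0.87 ± 0.13 at E17.5 (adjusted p = 0.051). The E15.5 value is against the 129 arrays with markers of other tissues, whose part in it was not tested. Rorb, beyond Anxa1 on that side, differed by at most 0.09 at the 3 stages and was not called. On the other side Tmc1, Zfand5 and Gda differed by -0.23 to 0.07 at the 3 stages, and none of the 3 was called. Around Cyp26a1, the 3 nearest measured genes on each side differed by -0.49 to 0.37 at E17.5, and none of these 6 was called. These neighbours were looked up after the values of the members were seen. Of 609 genes measured on chromosome 19, 3.12% were called at E15.5, 1.48% at E17.5 and 6.24% over the 3 stages. M19 carries MOLF sequence at these loci, so a different transcript level and a different match of the probes to the transcript cannot be told apart. How far the probes of Aldh1a7 also read Aldh1a1 was not tested.

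**Figure D2:**
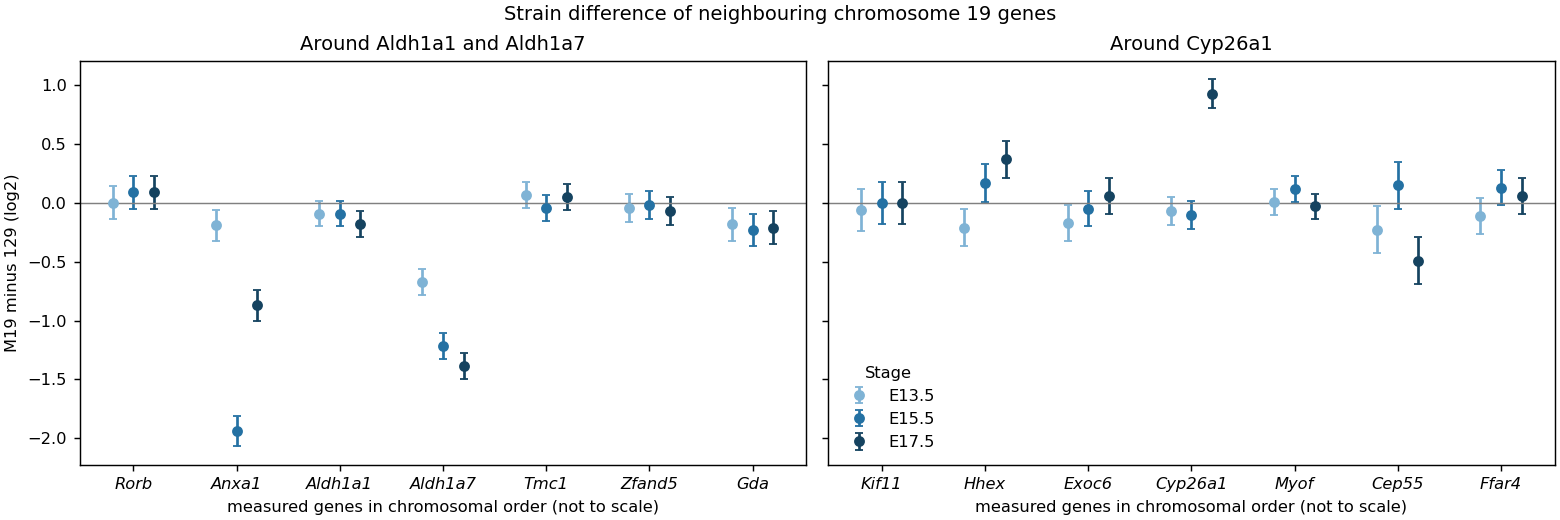
Strain difference (M19 minus 129, log2, with SE) at 3 stages for the measured genes next to Aldh1a7 and Cyp26a1, in chromosomal order and not to scale. Aldh1a7 and Anxa1 lie below 0 beside Aldh1a1 and Tmc1, and Cyp26a1 at E17.5 stands at 0.93 with neighbours between -0.49 and 0.37.

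Crabp1, which carries retinoic acid in the cytosol, was lower in M19 at E15.5, where the strains lay furthest apart. Its log2 signal in M19 was 8.86 and 8.87 at E13.5, 8.06 and 7.95 at E15.5, and 8.43 and 8.20 at E17.5. In 129 it was 8.68 and 9.07 at E13.5, 9.55 and 9.36 at E15.5, and 8.09 and 8.33 at E17.5. The strains overlapped at E13.5 and at E17.5, and at E15.5 both 129 arrays were the highest of all 12 and both M19 arrays the lowest, under the olfactory 95th percentile of 8.33. The E15.5 difference was -1.45 ± 0.16 (adjusted p = 0.0012), and it was called whichever of the 12 arrays was omitted. At E13.5 it was -0.01 ± 0.16 and at E17.5 0.10 ± 0.16, with 95% intervals of -0.35 to 0.33 and -0.24 to 0.44. The interaction of strain with stage was called, as the only member out of 8 (adjusted p = 0.028), where 0.205% of all genes were. That call was lost on omitting any of 10 of the 12 arrays, all but those without an array of 129 at E13.5, with an adjusted p of up to 0.25, and also under quantile normalization (0.08) and median centring (0.081).

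Between E13.5 and E15.5 the Crabp1 step was negative in M19 and positive in 129, where it missed the threshold. In M19 the gene fell by 0.86 on the log2 scale (SE 0.16, adjusted p = 0.0073), and in 129 the step was 0.58 ± 0.16 (adjusted p = 0.064). From E15.5 to E17.5 it fell by 1.24 in 129 (SE 0.16, adjusted p = 0.0023), with 0.31 ± 0.16 in M19 (adjusted p = 0.35). Without an M19 array of E13.5 or E15.5 the adjusted p of the M19 fall was up to 0.075, and without both 129 E15.5 arrays the fall was again -0.86 ± 0.16 (adjusted p = 0.0095).

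The 129 arrays with high Crabp1 are those with markers of other tissues. At E15.5 the skin list (6 of 6 genes measured) had a mean signal of 7.42 to 7.46 in M19 and 10.53 to 10.54 in 129. Of these genes 6 of 6 were called lower in M19. The skeletal muscle list was at 7.38 to 7.40 in M19 and 9.20 to 9.28 in 129, with 4 of 5 called lower, and the cartilage and tendon list at 7.27 to 7.32 in M19 and 9.57 to 9.83 in 129, with 4 of 4. At the other stages the skin list lay between 7.53 and 7.94 in M19 and between 7.47 and 7.83 in 129. Their part in the Crabp1 difference was not tested. The genes most like Crabp1 over the 12 arrays were Postn (Pearson's r = 0.91), which encodes a matrix protein of connective tissue, and the transcription factor genes Bcl11b and Twist2 (r = 0.896 each). The likeness is a description of arrays that share stage and tissue.

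**Figure D3:**
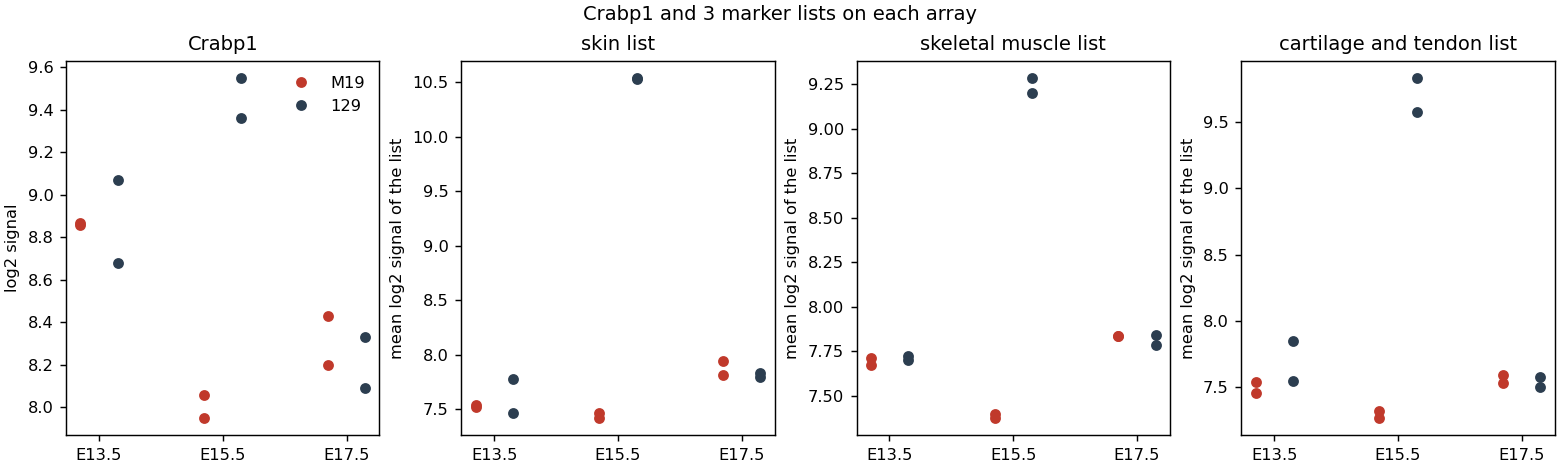
Log2 signal of Crabp1 and mean log2 signal of 3 marker lists (vertical axes, scaled separately) by stage, with M19 in red and 129 in dark blue. Each point is 1 array. The 2 arrays of 129 at E15.5 are the highest in all 4 panels, at 9.36 and 9.55 for Crabp1 and at 10.53 and 10.54 for the skin list.

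No strain difference was called for the remaining members, with 2 arrays per group. Cyp26b1, at 84571414 to 84593908 on chromosome 6, differed by 0.16 ± 0.20, 0.07 ± 0.20 and 0.07 ± 0.20 at the 3 stages, and its mean difference over the stages had a 95% interval of -0.15 to 0.35. Aldh1a2 differed by -0.14, 0.22 and -0.07 by stage (SE 0.15 each), with 95% intervals that together reach from -0.47 to 0.56. Aldh1a3 differed by 0.29, -0.22 and 0.12 (SE 0.18 each), with intervals that reach from -0.62 to 0.69. For Rarb the differences were 0.04, -0.26 and -0.10 (SE 0.15 each), with intervals that reach from -0.59 to 0.38. The signs of these 3 genes differ between stages, so their averages over the stages, 0.01, 0.06 and -0.11, say little of a single stage.

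**Figure D4:**
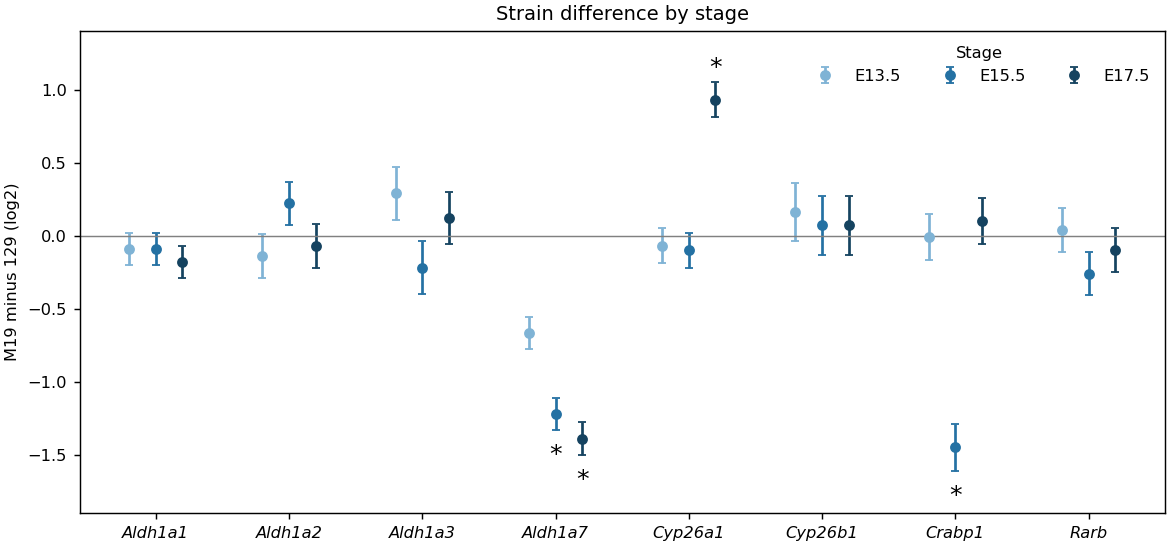
Strain difference (M19 minus 129, log2) of the 8 measured genes at 3 stages, with bars for the SE of the limma fit (2 arrays per strain). Asterisks mark an adjusted p under 0.05, which Aldh1a7 reaches at E15.5 and E17.5, Crabp1 at E15.5 and Cyp26a1 at E17.5.

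The stage comparisons ask how the developing testis changes within each strain. From E13.5 to E15.5 the receptor gene Rarb fell in both strains while Aldh1a1 rose in both. In M19, 5 of 8 members were called, 1 higher and 4 lower, where 7.44% of all genes were called, 5.78% higher and 1.66% lower. In 129, 3 of 8 were called, 1 higher and 2 lower, where 6.34% were called, 4.49% higher and 1.85% lower. The 129 arrays at E15.5 are those with markers of other tissues, whose part in the 129 steps was not tested. The median step of the members was -0.52 in M19 and 0.00 in 129, against 0.05 and -0.03 over all genes. From E15.5 to E17.5, 1 member was called in M19, Cyp26a1, higher, where 3.26% of all genes were called, 1.45% higher and 1.8% lower. In 129 1 member was called, Crabp1, lower, where 2.43% were called, 1.18% higher and 1.25% lower. From E13.5 to E17.5 over both strains 6 of 8 members were called, 2 higher and 4 lower, where 27.4% of all genes were called, 16.4% higher and 11% lower. Without an array of M19 at E13.5, 2 members were called in the M19 step to E15.5, and without an array of M19 at E15.5, 3 were. Without replicate 2 of 129 at E13.5, 5 were called in the 129 step.

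Aldh1a1, which oxidizes retinal to retinoic acid and in the fetal testis is known from somatic cells, rose with stage. The M19 log2 signal was 12.89 and 12.90 at E13.5, 13.56 and 13.55 at E15.5, and 13.69 and 13.84 at E17.5. The 129 signal was 12.98 and 13.00 at E13.5, 13.59 and 13.70 at E15.5, and 13.99 and 13.89 at E17.5. In both strains all arrays of E15.5 lay above those of E13.5. The step was 0.66 ± 0.11 in M19 (adjusted p = 0.0044) and 0.66 ± 0.11 in 129 (adjusted p = 0.0054), and the span to E17.5 over both strains was 0.91 ± 0.08 (adjusted p = 1.3e-05). The step missed the threshold without an array of M19 at E13.5 in M19 (adjusted p up to 0.062), and in 129 without replicate 2 of 129 at E15.5 (0.051), with array weights (0.063) and on the compared arrays alone (0.24). In these arrays the fetal Leydig cell list rose too, with 4 of 4 measured genes (of 5) higher at E15.5 in each strain and a mean signal in M19 of 10.83 to 10.89, 12.78 to 12.81 and 13.20 to 13.26 at the 3 stages. In 129 the list was at 11.16 to 11.22, 12.60 to 12.67 and 13.03 to 13.11. Its part in the Aldh1a1 rise was not tested. The genes most like Aldh1a1 over the 12 arrays were Dgat2, Unc13b and Pla2g5, with r = 0.99 each.

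Aldh1a2, the main retinoic acid synthase of the embryo, fell over the same time. Its log2 signal in M19 was 11.76 and 11.70 at E13.5, 11.23 on both arrays at E15.5, and 10.69 and 10.96 at E17.5. In 129 it was 11.71 and 12.03 at E13.5, 10.84 and 11.17 at E15.5, and 10.88 and 10.90 at E17.5. Every E13.5 array lay above every later one. In M19 the step to E15.5 was -0.50 ± 0.15 (adjusted p = 0.093) and in 129 it fell by 0.86 (SE 0.15, adjusted p = 0.0073). The 129 step ends at the arrays with markers of skin, muscle and cartilage, whose part in it was not tested. Over both strains Aldh1a2 fell by 0.94 to E17.5 (SE 0.11, adjusted p = 0.00011). The 129 step missed the threshold without replicate 1 of 129 at E15.5 (adjusted p = 0.067) and on the compared arrays alone (0.18). The M19 step was called under 5 of 9 other settings, with an adjusted p of 0.0056 to 0.049 in those 5, and the interaction of strain with stage for Aldh1a2 had an adjusted p of 1.

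Aldh1a3, a synthase of the same family, was read by 3 probe sets, all of which fell over the span from E13.5 to E17.5. The brightest had a log2 signal in M19 of 8.63 and 8.68 at E13.5, 7.64 and 7.26 at E15.5, and 7.35 and 7.60 at E17.5. In 129 it was 8.15 and 8.59, 7.53 and 7.81, and 7.42 and 7.28 at these stages. All E13.5 arrays lay above all later arrays, which were under the olfactory 95th percentile of 8.33, as was 1 array of 129 at E13.5. The other probe sets, at 6.49 to 7.34, were under it on every array, so the sizes of their falls rest on dim signal. The brightest probe set fell by 1.20 in M19 to E15.5 (SE 0.18, adjusted p = 0.0025), and the 129 step was -0.70 ± 0.18 (adjusted p = 0.056). Over both strains to E17.5 the 3 probe sets fell by 1.10, 0.57 and 0.39, with adjusted p of 0.00014, 0.0041 and 0.014. In the M19 step the other 2 probe sets were at -0.36 and -0.37, with adjusted p of 0.3 and 0.19.

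Rarb, a retinoic acid receptor and a target of its ligand, at 16430839 to 17082331 on chromosome 14, fell from E13.5 to E15.5 in both strains. Its log2 signal in M19 was 8.90 and 9.07 at E13.5, 7.29 and 7.39 at E15.5, and 7.47 and 7.54 at E17.5. The 129 signal of Rarb was 8.80 and 9.08 at E13.5, 7.40 and 7.80 at E15.5, and 7.65 and 7.56 at E17.5. The E13.5 arrays lay above the olfactory 95th percentile of 8.33 and all later arrays below it, and E15.5 and E17.5 overlapped in 129. From E13.5 to E15.5 Rarb fell by 1.64 in M19 (SE 0.15, adjusted p = 7.7e-05) and by 1.34 in 129 (SE 0.15, adjusted p = 0.00038), and both falls were called whichever of the 12 arrays was omitted. The next step was 0.16 ± 0.15 in M19 and 0.00 ± 0.15 in 129. Cyp26a1, the other gene with the spaced repeat shown above, had steps of -0.04 ± 0.12 in M19 and -0.01 ± 0.12 in 129 where Rarb fell. The genes most like Rarb over the 12 arrays were Tbx3 (r = 0.99), Id2 (0.987) and Ror1 (0.986).

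Markers of the mesonephros, which adjoins the gonad, also fell where Rarb, Aldh1a2 and Aldh1a3 did. Of the 7 measured genes of that list (of 9) 4 fell in each strain from E13.5 to E15.5, namely Cdh1, Cdh16, Emx2 and Gata3. The list's mean signal in M19 was 9.23 to 9.30, 8.35 to 8.37 and 8.11 to 8.13 at the 3 stages, and in 129 it was 9.24 to 9.38, 8.45 to 8.50 and 7.78 to 7.79. Of the 4 coelomic surface markers 2 fell in each strain, Krt19 and Upk3b in M19 and Lrrn4 and Upk3b in 129. Over that step 1.66% of all genes were called lower in M19 and 1.85% in 129. The part of these tissues in the falls of the retinoid genes was not tested.

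Cyp26b1, the clearing enzyme of the fetal testis, showed no called change. M19 arrays gave 11.18 and 11.00 at E13.5, 11.44 and 11.33 at E15.5, and 11.13 and 11.06 at E17.5. 129 arrays gave 10.62 and 11.26 at E13.5, 11.24 and 11.39 at E15.5, and 10.84 and 11.21 at E17.5. It had the narrowest range of the 8 members over the 12 arrays, 0.82. The step to E15.5 was 0.29 ± 0.20 in M19 (95% interval -0.14 to 0.72) and 0.38 ± 0.20 in 129 (-0.05 to 0.81), and the span to E17.5 was 0.04 ± 0.14 (-0.26 to 0.35). The 129 arrays at E13.5 lay far apart: without replicate 1 the 129 step was 0.06 (adjusted p = 0.87), and without replicate 2 it was 0.70 and called (adjusted p = 0.039).

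The wider retinoid pathway was read in a list of 53 genes, of which 47 were measured. None was called in a strain comparison by limma, at any stage, over the stages or in the interaction. At an unadjusted p under 0.05 there were 1, 9 and 0 genes at E13.5, E15.5 and E17.5, where 2.55%, 7.64% and 1.51% of all genes were. From E13.5 to E15.5, the test called 5 higher and 4 lower in M19 (7.44% of all genes called), and 3 higher and 4 lower in 129 (6.34% of all genes). From E15.5 to E17.5 there were 1 higher and 3 lower in M19 (3.26% of all genes called), and 1 higher and 2 lower in 129 (2.43%). Over both strains to E17.5, 10 of 47 were called higher and 10 lower, where 16.4% of all genes were higher and 11% lower, and the list's median was 0.11 against 0.06 for all genes.

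In retinol supply and oxidation, Adh1 rose and Stra6 fell. Adh1, an alcohol dehydrogenase that oxidizes retinol, rose by 1.74 ± 0.10 in M19 and by 1.31 ± 0.10 in 129 to E15.5 (adjusted p = 2.6e-06 and 2.2e-05). From E15.5 to E17.5 it rose by 0.53 in M19 and by 0.65 in 129. Stra6, the receptor that takes up retinol, fell by 1.35 in M19 and by 1.43 in 129 to E15.5 (SE 0.13 each, adjusted p = 0.00014 and 1e-04). Over both strains to E17.5, the retinol dehydrogenase Rdh10 fell by 1.00 ± 0.15 and the retinal reductase Dhrs3 by 0.40 ± 0.11. Higher over that span were Aldh1b1 (0.68 ± 0.09) and Adh5 (0.37), and Dhrs4 was lower (-0.48). Adh4, Rbp2 and the carotenoid oxygenase Bco1 were called higher too, with every array under 8.33, so no size is given. Some arrays of Stra6, Crabp2, Fgf9, Rec8 and Stra8 also lay under 8.33.

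Among carriers, receptors and response genes, Crabp2, Meis1 and Meis2 fell. Crabp2, a carrier that hands retinoic acid to its receptors, fell from E15.5 to E17.5 by 0.63 in M19 and by 1.01 in 129 (SE 0.14 each, adjusted p = 0.046 and 0.0045). The 129 fall starts from the E15.5 arrays with markers of skin, muscle and cartilage, whose part in it was not tested. Of the 9 measured receptors and co-regulators (of 11) 1 was called over the span, Nrip1, a co-repressor, at -0.45. The homeobox genes Meis1 and Meis2, which retinoic acid induces in the limb, fell by 1.18 and 0.86 in M19 and by 1.45 and 1.16 in 129 to E15.5. Rec8, a meiotic cohesin, rose by 0.74 ± 0.13 in M19 (adjusted p = 0.0076), with 0.16 ± 0.13 in 129. Zfp703 (0.39) and Pdgfra (0.56) were higher over the span.

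Stra8, the gene that retinoic acid turns on at meiotic entry, was called in no comparison. M19 arrays gave 7.79 and 7.68 at E13.5, 8.36 and 8.26 at E15.5, and 7.98 and 8.15 at E17.5. 129 arrays gave 8.14 and 7.67, 7.98 and 7.80, and 7.95 and 7.67 at these stages. Both M19 arrays at E15.5 lay above both 129 arrays, with a difference of 0.42 ± 0.17 (adjusted p = 0.55). Apart from the M19 array at 8.36, every Stra8 array lay under the olfactory 95th percentile of 8.33. The size of this difference and the lack of a call thus rest on dim signal. Of the regulators of Cyp26b1 or Stra8, Nr5a1, a nuclear receptor of steroidogenic and Sertoli cells, rose by 0.74 ± 0.11 in M19 and 0.51 ± 0.11 in 129 to E15.5. Fgf9, a growth factor of the early testis, fell by 1.21 in M19 and by 0.90 in 129 over that step (SE 0.15 each). Dmrt1, a testis transcription factor, rose in M19 (0.60), Dazl, a germ cell RNA-binding protein, fell in M19 from E15.5 to E17.5 (-0.69), and Sox9 was not called.

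**Figure D5:**
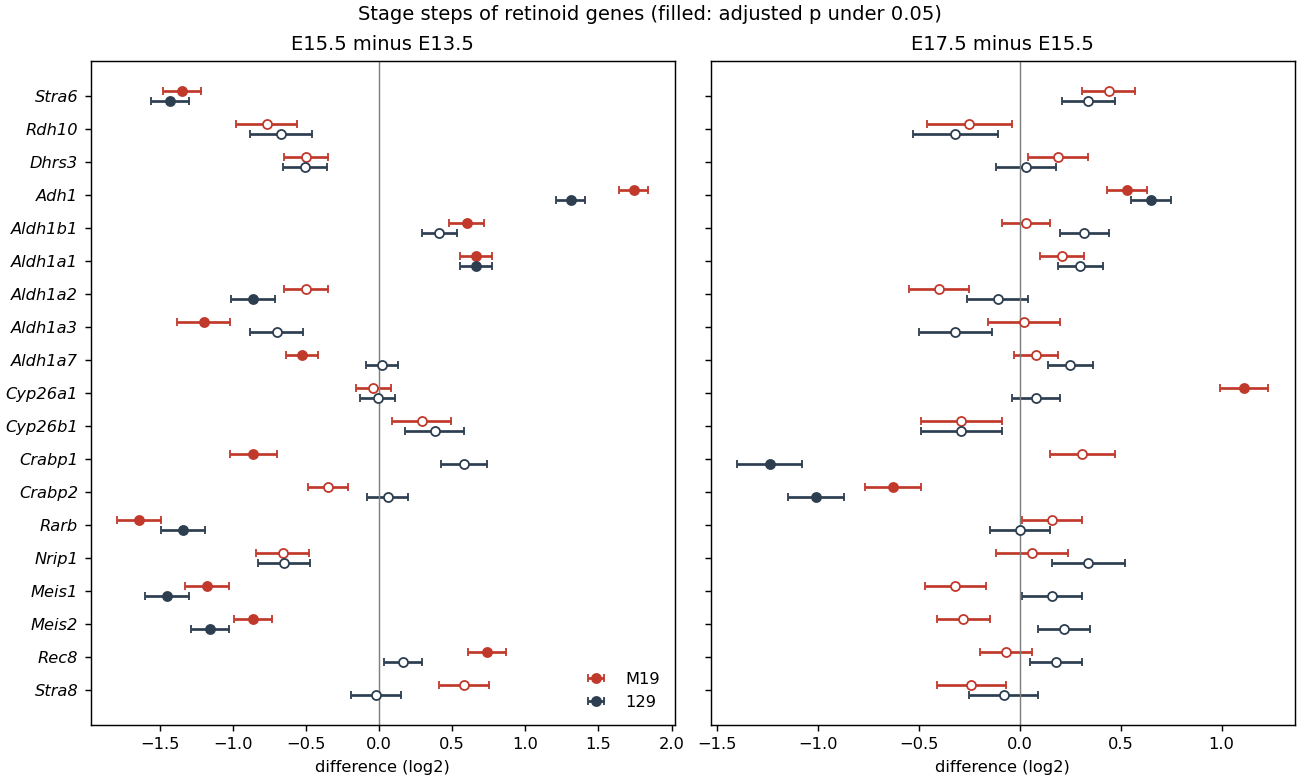
Stage steps (log2, with SE) of the members and of further retinoid genes, E15.5 minus E13.5 on the left and E17.5 minus E15.5 on the right, with M19 in red above 129 in dark blue. Filled points have an adjusted p under 0.05. Rarb, Stra6, Meis1 and Meis2 lie left of 0 in the earlier step in both strains, Adh1 and Aldh1a1 right of it, and Cyp26a1 in M19 stands at 1.11 in the later step.

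The genes most like the other members were named by the same measure, over 12 arrays and among 1854 genes. Aldh1a7 was most like Sf1 (r = 0.939), Lipo3 (0.915) and Ifit2 (0.907). Cyp26a1 was most like Nrap (0.906), with Cfap126 (0.759) and Pygm (0.75) after it. Aldh1a2 was most like Mycn (0.98), Aldh1a3 like Prom1 (0.978) and Cyp26b1 like Zfp329 (0.86). These arrays share stage, strain and tissue, so the likeness is a description and does not show joint regulation. Aldh1a7 and Cyp26a1 differed between the strains, and genes with a like strain difference rank high for them.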

How the data were processed

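Expression was measured on 12 Affymetrix mouse 430_2 arrays, named in the series text. The deposited values, taken as log2 from their range, hold 45101 probe sets. The authors' summary method, background correction, normalization and log base are not given in the sources used here. Array medians ran from 8.1 to 8.27. The number of arrays limits the precision.

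After 64 control probe sets were left out, 45037 were tested. The platform annotation pairs 34945 of them with 1 gene, 932 with several and 9160 with none, and 34741 matched RefSeq (GRCm38.p6). Each gene was read from the probe set brightest on average. A limma 3.58.1 model (R 4.3.3) of 6 group means was fitted to all 12 arrays, with eBayes (6 residual and 4.82 prior degrees of freedom), two-sided tests and Benjamini-Hochberg adjustment over 45037 probe sets. The interaction is an F test. The members, lists and tests were chosen with earlier results of these data known. The named genes are the members, the list genes called in some comparison, Stra8, and the 3 genes most like each member among bright, variable genes. Tested on simulated data for the E17.5 strain difference, with 45037 probe sets, the fit recovered 8% of changes of 0.5, 65% of changes of 1 and 100% of changes of 2 log2 units. Of 125 probe sets called in the simulation, 6 were false. Its noise was independent, with the same spread in every group, and it held no stage effects. The real groups differ in spread, so recovery in them may differ. Tables were joined in pandas 2.3.3 under Python 3.11.15 and drawn with matplotlib 3.10.9. Alternatives were other normalizations, a filter, variance models, a replicate block and left-out arrays.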

Additional observations from a re-analysis of the deposited data

Results flagged for a closer look

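Crabp1 was the member whose strain effect differed between stages by the test of the interaction (limma adjusted p = 0.028). Its strain difference was -0.01 at E13.5, -1.45 at E15.5 and 0.10 at E17.5 (M19 minus 129, log2, 2 arrays per strain). Both 129 arrays at E15.5 also carry the skin, muscle and cartilage markers. The call was lost on omitting any of 10 of the 12 arrays (adjusted p up to 0.25), under quantile normalization (0.08), where Cyp26a1 was the only member called, and under median centring (0.081).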

How the results depend on the processing

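Of 1620 refits of the 8 members under other settings, 1563 kept their side of the threshold, 37 lost a call, 20 gained a call and 0 reversed a called direction. Most of the results refitted had no call to lose, so the share kept says little of how stable the calls are. With dim probe sets filtered out, Aldh1a3, Cyp26a1 and Rarb were not tested. The members then called were 1 at E17.5 between strains, 3 in the M19 step to E15.5, 0 in the M19 step to E17.5 and 3 over the span. Of the 12038 genes tested by their brightest probe set with the filter, 9, 1398, 766 and 4436 were called in these comparisons. Without the filter it was 17, 1342, 587 and 4938 of 18032. Fits to the compared arrays alone called 1 member at E17.5 and 1 (Rarb) in the 129 step to E15.5. They called 12 and 273 of all 18032 genes there, against 17 and 1144 in the fit to all arrays. Averaging the probe sets of each gene, 2 members were called over the stages, 2 in the interaction and 5 in the 129 step to E15.5. Calls rose over all 18032 genes too, to 125, 73 and 1509 from 84, 37 and 1144 without averaging. Of the 8 members only Aldh1a3 has several probe sets, so averaging left the values of the others unchanged and altered the fit around them. Median centring called 0 in the interaction (Crabp1 adjusted p = 0.081), and 30 of all 18032 genes, against 37 without it. Quantile normalization called Cyp26a1 (0.033) in the interaction in place of Crabp1 (0.08), and 34 of all 18032 genes. The robust variance trend called 2 in the 129 step to E17.5, and 590 of all 18032 genes, against 439 without it. The cause of these changes was not tested.

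Leaving out 1 array gave 0 to 0 members called at E13.5, 2 to 2 at E15.5, 1 to 2 at E17.5, 1 to 2 over the stages, 0 to 2 in the interaction, 2 to 6 and 2 to 5 in the M19 and 129 steps to E15.5, 1 to 1 in each step to E17.5 and 6 to 6 over the span. A group left with 1 array is assumed to vary like the others. With the arrays of each group averaged, Cyp26a1 (adjusted p = 0.12) and Crabp1 (0.22) lost their calls over the span. With the replicate number as a block, the counts of members were 0, 2 and 2 at the 3 stages, as without it, and 44 probe sets were called at E17.5 both ways. Same-numbered arrays deviated together in 6 of 15 pairs of groups at a correlation over 0.1 (range -0.373 to 0.539). The numbers thus do not pair the arrays in the same way in all groups, but a structure shared by some groups was not tested. The block changed no member's call.

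Counts of all probe sets moved by over 1.5 times with single arrays: 8 to 32 at E13.5 (23 in the fit to all arrays), 84 to 351 at E15.5 (258), 14 to 52 at E17.5 (44), 92 to 251 over the stages (189) and 27 to 90 in the interaction (66). In the steps they ran from 938 to 3242 (2461) and 1230 to 2739 (2072) to E15.5 in M19 and 129, 173 to 1896 (1052) and 218 to 1277 (777) to E17.5, and 5941 to 14159 (10122) over the span. Under the other settings the counts were 0 to 28 at E13.5, 150 to 313 at E15.5, 22 to 56 at E17.5, 34 to 218 over the stages, 23 to 81 in the interaction, 1707 to 6429 and 443 to 2501 in the steps to E15.5, 965 to 2196 and 429 to 1011 in those to E17.5, and 5669 to 11226 over the span.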
